A study of Mus musculus with 70 samples.

Results

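Gene expression was compared between RENCA cells recovered from kidney tumours and RENCA cells recovered from lung metastases after the same number of rounds in mice. RENCA is a mouse renal carcinoma line, and the cells carried wild-type Vhl and a lentiviral enhanced GFP. The kidney primary tumour line (KPT) came from injection under the capsule of the left kidney, and the tail-vein lung metastasis line (T-LM) came from injection into the caudal vein. Both groups were at passage 5 (P5), the fifth round of implantation and recovery. The comparison took all samples whose titles give passage 5 with kidney or tail, which were 5 KPT and 6 T-LM samples, or 11 of the 70 arrays of the series. Hosts were wild-type BALB/c mice, which per the methods were females of 6 weeks. No drug and no gene deletion was applied to either group. After each round the tissue was digested and the cells were cultured for 10 to 15 days before the next implantation, per the methods, a step meant to leave out host cells. The methods state that culture went on until GFP-negative cells were no longer found and that the lines were then collected. The labels mention homogenised samples. Several mice were used per route and round, but the labels tie no replicate to a mouse, so each p-value measures the spread between these samples. The eGFP and the culture steps were shared by both groups, and only 1 parental line was used. Per the methods, more cells were injected into the vein than under the capsule. Injection site, cell number and organ of recovery thus changed together and cannot be told apart, and route below stands for all of them.

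Several of the genes with the largest changes towards T-LM belong to inflammatory programmes. Acute-phase proteins such as serum amyloid A and lipocalin 2 are secreted by liver and by many epithelia and tumours when cytokines act on them. CXC chemokines with an ELR motif attract neutrophils through the receptor Cxcr2, and transcription of the chemokine genes is driven in large part by NF-kB, which also switches on its own inhibitors. In clear cell renal carcinoma, loss of VHL stabilises HIF proteins and raises their targets, whereas RENCA cells keep Vhl.

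All values below are levels on the log2 scale: the background-subtracted signal of a probe relative to its own array's 75th percentile, so that a level of 0 equals that percentile. Levels of different genes were not compared with each other. A change is the T-LM mean minus the KPT mean with its standard error (SE), so positive values are higher in T-LM. Rises and falls below compare T-LM with KPT and not with the parental line. In the main comparison every adjusted p is from limma with Benjamini-Hochberg adjustment over all 19222 probes tested, and a probe was called at 0.01 or less. Fits on other sets of arrays were adjusted over their own tested probes. Quality measures of the arrays were compared by permutation and adjusted over those measures. Each gene symbol was represented by its brightest probe.

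Within the groups, 3 arrays stood apart from the other replicates: KPT 1, KPT 2 and T-LM 1. Over tested probes the 3 arrays correlated with each other at 0.964 to 0.982 and with the other 8 arrays at 0.904 to 0.965. The array nearest to KPT 1 was T-LM 1, and the reverse also held. KPT 3 to 5 correlated with each other at 0.987 to 0.991 and T-LM 2 to 6 at 0.964 to 0.992, whereas KPT 3 to 5 against T-LM 2 to 6 gave 0.952 to 0.972. The first principal component held 43.9% of the variance and set the 3 arrays (63.2 to 96.2) apart from the others (-60.5 to -0.8). The second held 22.6% and put all KPT arrays below 0 (-46.9 to -32) and all T-LM arrays above 0 (5.1 to 48.8). Results are therefore given with all 11 arrays and, where it matters, without these 3, a choice made after the data were seen. The 3 arrays were picked from these same values, so calls and p-values without them are descriptive and not independent evidence.

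Markers of some other cell types moved with the 3 arrays. The summed level of 20 macrophage and myeloid genes was 3.51 and 3.79 on KPT 1 and KPT 2 and 2.34 on T-LM 1, against 1.55 to 2.2 on the other 8 arrays. Summed fibroblast genes stood at 2.78 to 5.43 on the 3 arrays and at -1.2 to 1.58 on the others. Summed smooth muscle and pericyte genes stood at 4.25 to 5.3 against -0.63 to 1.86. Ranges overlapped for neutrophil (0.51 to 1.36 against 0.55 to 1.15), endothelial (-0.19 to 0.28 against -1 to 0.51) and lymphocyte sums (-0.77 to -0.11 against -1.31 to -0.45). The leukocyte marker Ptprc was well above background on KPT 1 and KPT 2 only, the lymphocyte marker Cd3d and the myeloid factor Spi1 on no array, and the endothelial markers Pecam1 and Cdh5 on no array. These levels stand beside the purity check by GFP that the methods describe, and the part of such cells in the results was not tested. In such RNA, fewer cells of a type and less RNA per cell cannot be told apart.

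**Figure D1:**
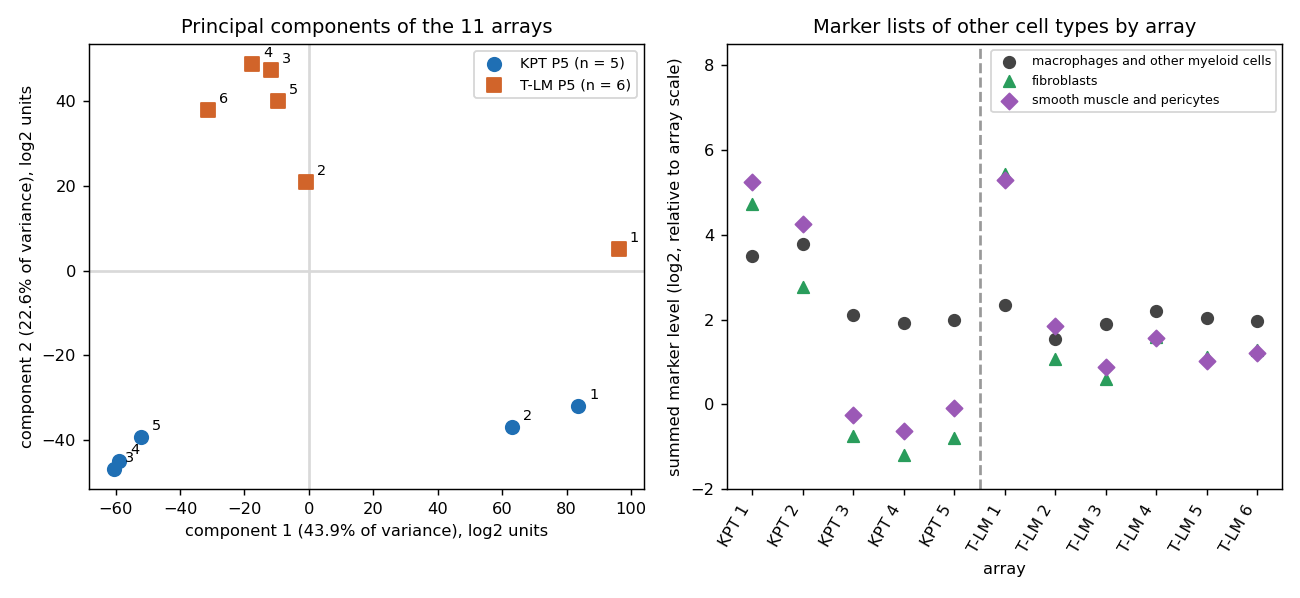
Left, principal components of the 11 P5 arrays (component 1 against component 2, log2 units; circles KPT, squares T-LM, numbers give the replicate). Right, summed log2 level of the macrophage, fibroblast and smooth muscle marker lists on each array. KPT 1, KPT 2 and T-LM 1 lie at 63.2 or above on component 1 and have the highest summed fibroblast and smooth muscle levels.

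Of 15 renal identity genes, 3 were above background on all 11 arrays and 9 on none, and Cdh16 was above background in KPT only. Pax8, a kidney lineage factor, and the simple-epithelium keratins Krt8 and Krt18 were the 3. Pax8 changed by -0.33 with an adjusted p of 0.215, Krt8 by 0.09 with 0.821 and Krt18 by -0.36 with 0.18. Pax2, Epcam and Cdh1 were among the 9. Of 12 lung epithelial genes, 8 were above background on no array, among them the surfactant gene Sftpc, and so were 9 of 12 kidney tubule and podocyte genes, among them Umod.

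Signal differed between arrays, and the layout of the slides was not balanced. The share of probes well above background was 31.3% ± 2.06 (SD, n = 5) in KPT and 28.4% ± 2.36 (SD, n = 6) in T-LM, with an exact 2-sided permutation p of 0.0628 and an adjusted p of 0.169 over 4 quality measures. The 75th-percentile signal was 309 ± 81.5 intensity units in KPT and 212 ± 79.3 in T-LM (exact permutation p = 0.0844, adjusted 0.169). An index of long against ribosomal-protein mRNAs had an adjusted exact permutation p of 0.4 and the summed macrophage level one of 0.185. KPT 1 to 4 lay at 1 position of their slides, and KPT 5 and all T-LM arrays at another. With position as a term over the 62 arrays of the earlier slides, the 479 probes called below became 87, and of 50 called genes examined 15 kept the call. KPT 1 shared a slide with T-LM 4, KPT 2 with T-LM 5 and KPT 3 with T-LM 6. Over these 3 slides alone, with slide as a fixed block, limma called 0 probes and 4135 had an unadjusted p below 0.05.

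Across the transcriptome, 479 of 19222 probes (2.49%) were called between T-LM and KPT at P5, 204 higher in T-LM and 275 higher in KPT. By symbol, 301 of 11249 were called (2.68%), of which 115 (1.02%) were higher in T-LM and 186 (1.65%) higher in KPT. The absolute log2 change of called symbols ran from 0.62 to 4.98 and was 1 or more for 220 of them. The values of the 2 groups did not overlap for 290 of the 301, against 976 of all 11249 symbols (8.68%). The split by direction depended on the scaling. With the 75th percentile over all probes the median change of all probes moved from -0.07 to 0.07 and the share of calls higher in T-LM from 42.6% to 73.4%. Without the 3 arrays that stood apart, 1046 of 10779 symbols (9.7%) were called, 483 (4.48%) higher in T-LM and 563 (5.22%) higher in KPT. Of the 301 symbols, 280 were called again and all 301 kept their direction.

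The 10 largest rises among symbols with separate groups were Saa3, Cxcl5, Nos2, Mmp3, Cxcl1, Nfkbiz, Lcn2, Saa1, Ctag2l1 and Hcar2. The 10 largest falls were Myl1, Cdh16, Bmp7, Tm6sf1, Itih4, Elovl7, Tspan32, Boc, C130050O18Rik and Fcgr2b. Of these 20 genes, 14 were called after leaving out any 1 of the 11 arrays. The other 6 were Boc, Cdh16, Fcgr2b, Hcar2, Mmp3 and Tspan32, with adjusted p up to 0.0317 for Hcar2. With array position as a term, 11 of the 20 were called, among them Saa3, Cxcl1, Nos2, Lcn2 and Myl1. Cxcl5 then had an adjusted p of 0.0129, Mmp3 0.0106, Bmp7 0.0256 and Ctag2l1 0.14.

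**Figure D2:**
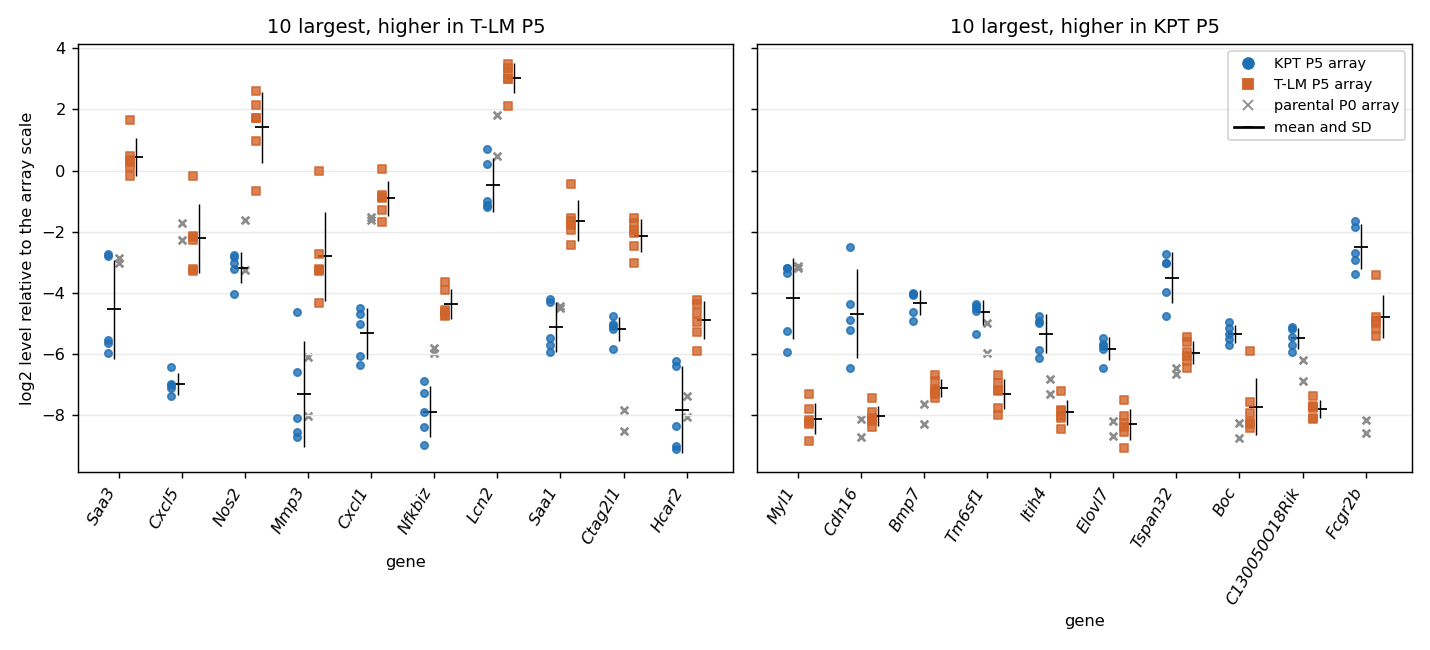
Log2 level relative to the array scale of the genes with the largest change among called genes whose groups do not overlap, 10 higher in T-LM (left) and 10 higher in KPT (right). Circles are the 5 KPT arrays, squares the 6 T-LM arrays, crosses the 2 parental P0 arrays, and black marks the mean with the SD.

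Acute-phase genes were the list with the most members called. Of 12 members tested, 7 were higher in T-LM (Saa3, Saa1, Lcn2, Orm2, Serpina3n, Cp and Lrg1) and 1, Itih4, was higher in KPT. In the fit without the 3 arrays, 9 of 11 were higher and 1 lower. Over all symbols, 1.02% were called higher in T-LM and 1.65% higher in KPT, and without the 3 arrays 4.48% and 5.22%. The median change of the list was 1.76, against -0.1 over all symbols tested.

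Saa3, a serum amyloid A made outside the liver, gave KPT levels of -2.73, -2.8, -5.65, -5.54 and -5.96. In T-LM it ran from -0.17 over a median of 0.31 to 1.65. The change was 4.98 ± 0.63 (SE), a 31.6-fold higher level, with an adjusted p of 0.00169. Every T-LM value lay above every KPT value, and within KPT the arrays 1 and 2 were the highest. Both parental arrays (-3.02 and -2.86) lay inside the KPT range, close to KPT 1 and KPT 2. Within the 3 slides that held both groups, T-LM exceeded KPT by 3.06, 3.08 and 5.48. The 4 P5 arrays of K-LM, the lung metastases that arose after kidney injection, ran from 1.76 to 3.59.

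Saa1, the acute-phase serum amyloid A, stood at -4.21, -4.3, -5.69, -5.46 and -5.92 in KPT and from -2.45 over a median of -1.71 to -0.45 in T-LM. It rose by 3.48 ± 0.4 (SE, adjusted p = 9.66e-04), 11.1-fold. Saa2, its close paralog, was well above background on no array and was not tested. Probes of near-identical paralogs can share signal, so the split between the 2 is uncertain.

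Lcn2, lipocalin 2, which binds bacterial siderophores, gave 0.22, 0.71, -1.19, -1.11 and -0.98 in KPT and 2.11, 3.09 and 3.49 as lowest, median and highest in T-LM. The change was 3.49 ± 0.37 (SE, adjusted p = 7.30e-04), 11.2-fold, with no overlap. T-LM 1 was the lowest of its group here. The parental arrays gave 1.83 and 0.48, so the first of these lay above every KPT array.

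The orosomucoid Orm2 was called at 2.29 ± 0.41 (adjusted p = 0.00726), but its groups overlapped, with T-LM 1 at -1.5 and KPT 2 at -1.48. Its paralog Orm1, whose probe may share signal, changed by 2.09 with an adjusted p of 0.0103. Leucine-rich glycoprotein Lrg1 rose by 1.13 ± 0.17 (adjusted p = 0.0041) and the copper carrier Cp by 1.43 ± 0.22 (adjusted p = 0.0045). A second Cp probe changed by 1.24 ± 0.27 and was not called (adjusted p = 0.0163). The protease inhibitor Serpina3n, which was well above background on no KPT array, was at least 1.16-fold higher in T-LM (log2 2.3 ± 0.37, adjusted p = 0.00506). The calls of Lrg1, Cp, Serpina3n and Orm2 held in 5, 4, 4 and 3 of 11 fits that left out 1 array. With array position as a term their adjusted p was 0.241, 0.0584, 0.182 and 9.56e-04. Cp, Orm1, Orm2 and Serpina3n are named because of their values. In the opposite direction, Itih4, an inter-alpha-trypsin inhibitor chain, stood at -6.13, -5.88, -4.97, -4.91 and -4.75 in KPT, on 4 arrays above background, and on no T-LM array above background. It was at least 1.67-fold higher in KPT (log2 -2.58 ± 0.29, adjusted p = 8.92e-04).

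CXC chemokines with the ELR motif were the called members of the chemokine list. Of 20 chemokine genes tested, 4 were higher in T-LM (Cxcl1, Cxcl2, Cxcl3 and Cxcl5) and none was higher in KPT, with a median change of 0.26. Leaving out the 3 arrays, 8 of 16 were higher, among them the monocyte chemoattractants Ccl2 and Ccl7, and 1, Ccl25, lower. The shares of all symbols called higher in T-LM were 1.02% with all arrays and 4.48% without the 3.

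Cxcl5 gave KPT levels of -7.12, -6.97, -7.02, -7.36 and -6.42, none of them well above background. In T-LM it gave -3.3, -2.23 and -0.17 as lowest, median and highest, all above background. It was at least 20.2-fold higher in T-LM (log2 4.76 ± 0.47, adjusted p = 4.53e-04), the largest bound among the genes named here. T-LM 1 was far above the other T-LM arrays, and without the 3 arrays the bound was 16.9-fold. The parental arrays gave -2.28 and -1.71, within the T-LM range and far above KPT.

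Cxcl1 stood at -4.69, -4.5, -6.05, -6.35 and -5.01 in KPT and at -1.67, -0.89 and 0.06 (lowest, median, highest) in T-LM. It rose by 4.41 ± 0.38 (SE, adjusted p = 2.05e-04), 21.3-fold. Here too the parental arrays, at -1.51 and -1.61, were inside the T-LM range. Cxcl3 rose by 2.73 ± 0.3 (adjusted p = 8.54e-04), from KPT levels between -5.68 and -4.17 to T-LM levels between -2.86 and -1.69, and its parental levels were -1.57 and -1.74, close to the highest T-LM array. Cxcl2 rose by 2.63 ± 0.44 (adjusted p = 0.00605), from levels between -8.2 and -5.7 in KPT to levels between -5.25 and -4.04 in T-LM. The Cxcl2 call held in 3 of 11 fits that left out 1 array. With array position as a term the adjusted p was 0.0208 for Cxcl2 and 0.0172 for Cxcl3. For all 4 chemokines every T-LM array lay above every KPT array. Ccl2 changed by 1.82 ± 0.63 with an adjusted p of 0.088 and Ccl7 by 2.48 ± 0.89 with 0.1. Both had KPT 1 and KPT 2 in or near the T-LM range and KPT 3 to 5 below it, and without the 3 arrays both were called, with changes of 2.45 and 3.63 (adjusted p = 4.49e-04 and 4.53e-05). Ccl2 and Ccl7 are named because of their values.

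The promoters of Cxcl1, Cxcl2 and Cxcl3 are shown because these genes moved together and because of motif matches seen close to their starts. The promoter of Cxcl5 was not analysed here. The promoters cover 250 bases before to 50 bases after the annotated start in RefSeq, assembly GRCm38.p6: Cxcl1 at chr5:90890995-90891294, Cxcl2 at chr5:90903649-90903948 and Cxcl3 at chr5:90785851-90786150, all on the plus strand. Capitals mark matches to the NF-kB consensus on either strand. In each promoter, overlapping matches on both strands begin 71 and 70 bases (Cxcl1), 97 and 96 bases (Cxcl2) and 73 and 72 bases (Cxcl3) before the start. Of 32851 promoters of 300 bases, 8.46% hold at least 1 match.
Cxcl1 promoter: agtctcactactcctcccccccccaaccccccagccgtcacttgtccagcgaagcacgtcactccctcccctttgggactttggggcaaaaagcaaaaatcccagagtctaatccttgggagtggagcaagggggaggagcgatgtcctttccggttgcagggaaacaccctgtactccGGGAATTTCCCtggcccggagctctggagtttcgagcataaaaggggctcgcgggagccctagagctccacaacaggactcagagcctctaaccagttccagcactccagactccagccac
Cxcl2 promoter: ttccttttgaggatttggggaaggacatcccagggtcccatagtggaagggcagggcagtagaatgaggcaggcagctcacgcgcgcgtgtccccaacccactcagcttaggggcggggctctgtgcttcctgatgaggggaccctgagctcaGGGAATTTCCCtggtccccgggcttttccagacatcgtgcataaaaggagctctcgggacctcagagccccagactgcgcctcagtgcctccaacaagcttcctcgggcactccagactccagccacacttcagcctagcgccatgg
Cxcl3 promoter: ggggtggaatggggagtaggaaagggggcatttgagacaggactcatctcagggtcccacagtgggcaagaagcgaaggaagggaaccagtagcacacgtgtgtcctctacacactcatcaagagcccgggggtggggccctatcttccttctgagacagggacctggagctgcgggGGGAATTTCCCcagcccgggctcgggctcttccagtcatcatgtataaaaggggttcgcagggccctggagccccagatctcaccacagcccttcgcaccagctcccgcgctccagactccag

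The promoters of Saa3 (chr7:46715627-46715926, minus strand), Lcn2 (chr2:32387690-32387989, minus strand) and Mmp3 (chr9:7445572-7445871, plus strand) are shown as those of leading T-LM genes outside the chemokine family. Capitals mark the C/EBP-type letters TTGCNNAA, searched on both strands, and the AP-1 letters TGANTCA, which are the same on both strands. TTGCNNAA begins 99 bases before the start in Saa3, 216 in Lcn2 and 148 in Mmp3, and TGANTCA begins 46 bases before the start in Mmp3. These 3 promoters hold no NF-kB consensus match in this window. Of all 32851 promoters, 10.8% hold TTGCNNAA and 7.81% hold TGANTCA. A match is a description of the letters only.
Saa3 promoter: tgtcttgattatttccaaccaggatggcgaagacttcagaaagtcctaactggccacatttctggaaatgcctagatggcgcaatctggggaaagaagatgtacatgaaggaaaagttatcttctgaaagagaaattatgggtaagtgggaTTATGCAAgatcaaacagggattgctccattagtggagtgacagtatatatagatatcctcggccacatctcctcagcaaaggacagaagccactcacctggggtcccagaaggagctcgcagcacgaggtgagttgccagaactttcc
Lcn2 promoter: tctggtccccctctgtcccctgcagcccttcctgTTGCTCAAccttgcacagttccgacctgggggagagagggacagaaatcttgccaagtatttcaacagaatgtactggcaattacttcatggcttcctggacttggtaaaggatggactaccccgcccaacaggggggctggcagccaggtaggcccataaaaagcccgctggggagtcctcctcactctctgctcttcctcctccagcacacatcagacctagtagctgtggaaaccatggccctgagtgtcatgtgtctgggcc
Mmp3 promoter: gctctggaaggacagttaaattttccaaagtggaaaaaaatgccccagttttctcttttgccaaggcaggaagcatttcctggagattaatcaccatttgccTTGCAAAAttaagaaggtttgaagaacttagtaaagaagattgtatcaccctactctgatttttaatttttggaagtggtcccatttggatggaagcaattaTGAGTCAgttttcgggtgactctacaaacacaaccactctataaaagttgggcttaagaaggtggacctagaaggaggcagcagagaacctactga

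Of the NF-kB inhibitors and co-regulators, Nfkbiz, Nfkbia and Zc3h12a rose. Nfkbiz, an atypical IkB protein needed for a subset of acute-phase and chemokine genes, was above background on no KPT array (-7.28, -6.88, -8.98, -7.9 and -8.38). In T-LM it gave -4.77, -4.59 and -3.63 as lowest, median and highest. It was at least 4.55-fold higher in T-LM (log2 3.52 ± 0.36, adjusted p = 6.14e-04), and its groups lay apart. Nfkbia, the feedback inhibitor IkB alpha, rose by 1.99 ± 0.19 (adjusted p = 3.29e-04), from KPT levels between -1.35 and -0.67 to T-LM levels between 0.4 and 1.26. The RNase Zc3h12a, which degrades cytokine mRNAs, was on 2 T-LM arrays and no KPT array above background and was at least 1.68-fold higher (log2 2.77 ± 0.22, adjusted p = 1.37e-04). Tnfaip3, the A20 deubiquitinase, did not overlap between groups but missed the threshold (1.2 ± 0.24, adjusted p = 0.0111). Over a list of 20 tested NF-kB pathway genes, drawn up after the leading genes were seen, Nfkbiz, Nfkbia and Zc3h12a were called higher and none lower. Nfkbiz and Zc3h12a passed the background filter through T-LM arrays alone, so their calls are not independent support for the list. Over all symbols 1.02% were called higher in T-LM. The median change of the list was 0.26. The other inhibitors Nfkbib and Nfkbie changed by 0.12 and 0.17 and were not called. Nfkbia, Zc3h12a and Tnfaip3 are named because of their values.

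Nos2, the inducible nitric oxide synthase, was among the largest rises. KPT arrays gave -3.02, -2.82, -3.23, -2.75 and -4.03, and T-LM arrays -0.68, 1.72 and 2.61 as lowest, median and highest. The change was 4.58 ± 0.5 (SE, adjusted p = 7.60e-04), 24-fold, and T-LM 1 was the lowest T-LM array. Parental levels were -1.61 and -3.24. Mmp3, the matrix protease stromelysin 1, gave -4.61, -6.59, -8.55, -8.71 and -8.08 in KPT and -4.34, -3.23 and -0.02 in T-LM. Its change was 4.5 ± 0.84 (adjusted p = 0.00872). Leaving out single arrays gave changes of 3.94 to 5.18, but the call was kept in 3 of 11 such fits, with adjusted p from 0.00289 to 0.0303. KPT 1 was close to the lowest T-LM array, and without the 3 arrays, where no KPT array passed background, it was at least 10.2-fold higher in T-LM (log2 5.08, adjusted p = 1.70e-05).

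Hcar2, a receptor for niacin and ketone bodies, rose by 2.92 ± 0.56 (adjusted p = 0.0099), from KPT levels of -6.38, -6.21, -9.01, -9.11 and -8.36. Ctag2l1, a cancer/testis antigen-like gene, rose by 3.05 ± 0.27 (adjusted p = 2.39e-04), from levels between -5.84 and -4.75 in KPT to levels between -3.03 and -1.56 in T-LM. A second Ctag2l1 probe was also called in this direction. Ctag2l1 was above background on neither parental array, and its K-LM P5 levels ran from -6 to -3.49, below every T-LM array.

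Of the complement system, C3 and factor B were higher in T-LM than in KPT while the list as a whole was not shifted upwards. Of 15 complement genes tested, C3, Cfb and C1ra were called higher in T-LM, against 1.02% of all symbols. None was called higher in KPT, and the median change was -0.23. C3, the central component, gave -2.64, -3.65, -4.26, -4.01 and -4.17 in KPT and -1.6, -1.07 and -0.4 in T-LM. It rose by 2.64 ± 0.3 (SE, adjusted p = 9.97e-04), 6.22-fold, with no overlap. Both parental arrays were higher than all P5 arrays, at 0.74 and 0.65. Cfb, factor B, was above background on no KPT array and on 5 T-LM arrays, and was at least 2.84-fold higher (log2 2.77 ± 0.51, adjusted p = 0.00806). The call of Cfb was lost in 8 of 11 fits that left out 1 array. C4b changed by 1.76 ± 0.48 with an adjusted p of 0.0398.

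Immediate-early genes are switched on within minutes by serum and MAP kinase signalling. Of 18 tested, Fos, Fosb, Fosl1, Dusp1 and Ier3 were called higher in T-LM, against 1.02% of all symbols, and none lower. The list's median change was 0.03, and the related Fosl2 changed by -0.42 (adjusted p = 0.642). Fos stood at -2.49, -2.79, -2.49, -2.79 and -2.14 in KPT and at -0.65, -0.13 and 0.32 in T-LM. The change was 2.4 ± 0.2 (SE, adjusted p = 1.37e-04), 5.29-fold, and KPT 1 and KPT 2 lay within the range of the other KPT arrays. Fosb gave -5.42, -5.67, -6.2, -6.5 and -6.63 in KPT and -3.73, -3.6 and -1.94 in T-LM, and rose by 2.81 ± 0.35 (adjusted p = 0.00156), with T-LM 1 as the highest array. Fosl1 rose by 1.83 ± 0.28 (adjusted p = 0.00453), the phosphatase Dusp1 by 1.55 ± 0.22 (adjusted p = 0.00309) and Ier3, named because of its value, by 1.77 ± 0.29 (adjusted p = 0.00588). The calls of Fosl1, Dusp1 and Ier3 held in 4, 8 and 4 of 11 fits that left out 1 array. With array position as a term, Fosb was called and Fos was not (2.01, adjusted p = 0.14). Fosl1, Dusp1 and Ier3 then had adjusted p of 0.0175, 0.0332 and 0.0346.

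Targets of HIF had small positive changes. All 25 tested members of the VHL and HIF list had a positive change, with a median of 0.55. By limma, 5 were called higher in T-LM (Adm, Bnip3, Hk1, Pfkfb3 and Slc2a1), against 1.02% of all symbols. In the same test 15 had an unadjusted p below 0.05, against 28.4% of all symbols. Leaving out the 3 arrays gave 7 calls, all higher in T-LM and among them Egln3 and Ankrd37, against 4.48% of all symbols. With array position as a term the 5 genes lost the call, at adjusted p of 0.329 (Adm, change 0.69), 0.0596 (Bnip3), 0.0502 (Slc2a1), 0.0345 (Hk1) and 0.0256 (Pfkfb3). With 1 array left out, the call held in 11 of 11 fits for Adm, 4 for Bnip3 and 3 each for Hk1, Pfkfb3 and Slc2a1. Egln3 and Ankrd37 are named because of their values, as is Slc2a1.

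Adm, the vasodilator peptide adrenomedullin, gave 0.37, 0.46, 0.4, 0.46 and 0.99 in KPT and 1.59, 1.65 and 1.82 in T-LM. It rose by 1.14 ± 0.13 (SE, adjusted p = 0.00115), and its groups lay apart with KPT 5 nearest to T-LM. Bnip3, which promotes mitophagy, rose by 1.14 ± 0.18 (adjusted p = 0.00488) from levels between 1.73 and 2.57 to levels between 2.77 and 3.52. Another Bnip3 probe was called (1.5 ± 0.19, adjusted p = 0.00157) and a further probe was not (1.13 ± 0.25, adjusted p = 0.0176). The glycolytic genes Hk1 (hexokinase 1) and Pfkfb3 rose by 1.52 ± 0.24 (adjusted p = 0.00518) and 1.32 ± 0.23 (adjusted p = 0.00667), and the glucose transporter Slc2a1 by 0.94 ± 0.17 (adjusted p = 0.00838). Second probes of Hk1 (1.09 ± 0.34, adjusted p = 0.0619) and Pfkfb3 (1.51 ± 0.38, adjusted p = 0.0281) were not called. Egln3, the HIF prolyl hydroxylase PHD3, changed by 1.77 ± 0.86 with an adjusted p of 0.221, and without the 3 arrays it was at least 2.67-fold higher in T-LM (log2 2.71, adjusted p = 6.31e-04). Ankrd37 changed by 1.34 ± 0.3 with an adjusted p of 0.0171.

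Of the regulators, Hif1a stood at -0.76, -0.94, -0.83, -0.89 and -0.92 in KPT and at -0.51, 0.03 and 0.83 in T-LM. Its change of 1.04 ± 0.23 missed the threshold (adjusted p = 0.0189), although no values overlapped. Vhl changed by 0.26 ± 0.18 (adjusted p = 0.408) and Epas1, which encodes HIF-2 alpha, by 0.19 ± 0.14 (adjusted p = 0.419), both with overlapping groups. A changed level was therefore not detectable for these 2 genes with 11 arrays.

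**Figure D3:**
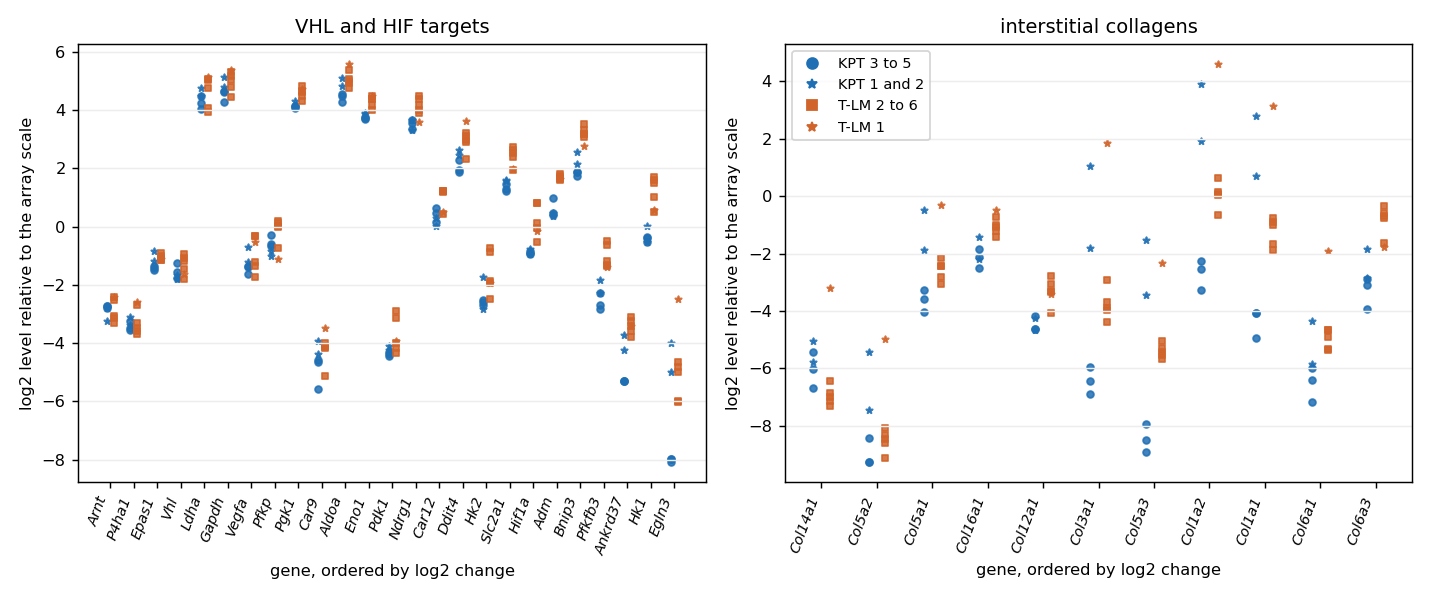
Log2 level relative to the array scale of each member of the VHL and HIF list (left) and of the interstitial collagens (right), ordered by change; blue is KPT and orange T-LM, and stars mark KPT 1, KPT 2 and T-LM 1. In Col1a1 and Col3a1 the stars lie above all other arrays, whereas in Adm KPT 1 and KPT 2 lie at 0.37 and 0.46, beside the other KPT arrays.

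Summed over their lists, interstitial collagens and matrix glycoproteins were highest on the 3 arrays that stood apart. Of 11 interstitial collagens tested with all arrays, Col6a3 and Col12a1 were called higher in T-LM, and the list's median change was 1.18. When the 3 arrays were left out, 7 of 10 were called higher and the median was 2.02. Of matrix glycoproteins and proteoglycans 11 of 16 were then called higher, against 0 of 21 with all arrays by limma, where 5 had an unadjusted p below 0.05. Of all symbols, 4.48% were called higher in T-LM without the 3 arrays, and 28.4% had an unadjusted p below 0.05 with all arrays. The summed collagen level was 2.7 to 5.3 on the 3 arrays and -0.67 to 2 on the others. Leaving out the arrays with the highest collagen narrows the spread of these genes, so the added calls follow in part from that choice. In the other 8 arrays, 4 of 6 fibroblast genes (median 2.7) and 4 of 5 smooth muscle genes (median 1.33) were called higher in T-LM. Col1a1, Col1a2 and Col3a1 belong to both the fibroblast and the collagen list, so these lists are not independent. The other called fibroblast gene was Thy1 (3.34), while Dcn (1.01) and Pdgfrb (-0.9) were not called. Summed fibroblast genes were at -1.2 to -0.74 on KPT 3 to 5 and at 0.59 to 1.58 on T-LM 2 to 6, and their part in the collagen result was not tested.

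Col1a1, the main chain of fibrillar collagen, gave 2.79 and 0.72 on KPT 1 and KPT 2 and -4.07, -4.94 and -4.07 on KPT 3 to 5. In T-LM it gave -1.87, -0.95 and 3.15, the highest being T-LM 1. With all arrays the change was 1.4 ± 1.42 (adjusted p = 0.582), and without the 3 arrays 3.12 (adjusted p = 1.76e-04). Fibronectin, Fn1, gave 2.85, 1.83, -2.82, -2.86 and -2.75 in KPT and -0.69, -0.23 and 3.4 in T-LM, and its change went from 1.06 (adjusted p = 0.617) to 2.51 (adjusted p = 2.23e-05). The same held for Col3a1, at 1.18 (adjusted p = 0.681) and 2.65 (adjusted p = 5.45e-04), and for the calcification inhibitor Mgp, at 3.14 (adjusted p = 0.0427) and 3.99 (adjusted p = 6.78e-05). Both groups hold arrays with high collagen, and the limma p-values without the 3 arrays carry the limit given above. Col3a1 and Fn1 are named because of their values.

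Col6a3, a collagen VI chain, was higher in T-LM on every array: KPT gave -1.84, -2.86, -2.89, -3.09 and -3.93 and T-LM -1.76, -0.72 and -0.33. It rose by 1.96 ± 0.36 (SE, adjusted p = 0.00835), and the call was lost in 8 of 11 fits that left out 1 array. Col12a1 rose by 1.13 ± 0.21 (adjusted p = 0.00836) and was not called without the 3 arrays (1.15, adjusted p = 0.0149). Of 17 basement membrane genes, Lamb3, the laminin-332 beta chain of epithelia, was called (2.33 ± 0.45, adjusted p = 0.00944), with T-LM 1 at -5.44 below KPT 1 at -5. The calls of Col12a1 and Lamb3 held in 3 and 2 of 11 fits that left out 1 array.

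The genes higher in KPT were of mixed function, and for 8 of the 10 largest no T-LM array was well above background. Myl1, a skeletal muscle myosin light chain, gave -5.93, -5.25, -3.18, -3.36 and -3.18 in KPT and -8.83, -8.19 and -7.32 in T-LM. It was at least 3.71-fold higher in KPT (log2 -3.93 ± 0.51, adjusted p = 0.00184). Its parental levels, -3.19 and -3.13, lay beside those of KPT 3 to 5, and the K-LM P5 arrays gave -8.59 to -8.06.

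Cdh16, kidney-specific cadherin, gave -2.49, -4.36, -6.47, -5.22 and -4.87 in KPT and was above background on no T-LM array. It was at least 2.62-fold higher in KPT (log2 -3.33 ± 0.54, adjusted p = 0.00518). KPT 1 was the highest array, and single arrays decided the call, which was lost in 7 of 11 fits that left out 1 array. The parental arrays gave -8.7 and -8.12, not above background. Bmp7, a growth factor of the developing kidney, gave -4.61, -4.91, -4.07, -3.99 and -4.05 in KPT and -7.45, -7.18 and -6.67 in T-LM. It was at least 3.35-fold higher in KPT (log2 -2.79 ± 0.21, adjusted p = 1.37e-04), and KPT 1 and KPT 2 were the lowest of their group. Bmp7 was not above background on the parental arrays either (-7.63 and -8.27).

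Tm6sf1, a multi-pass membrane protein, gave KPT levels between -5.34 and -4.36 and no T-LM array above background, at least a 2.69-fold higher level in KPT (log2 -2.66 ± 0.26, adjusted p = 4.20e-04), and its second probe was called too. Elovl7, a fatty acid elongase, was at least 1.18-fold higher in KPT (log2 -2.47 ± 0.26, adjusted p = 6.78e-04), and Boc, a hedgehog co-receptor, at least 1.66-fold (log2 -2.38 ± 0.4, adjusted p = 0.00603). C130050O18Rik was at least 1.51-fold higher (log2 -2.32 ± 0.19, adjusted p = 1.37e-04). Tspan32, a tetraspanin, gave -4.76, -3.96, -2.74, -3.01 and -3.02 in KPT and -6.47, -5.99 and -5.44 in T-LM (-2.46 ± 0.35, adjusted p = 0.00291).

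Fcgr2b, the inhibitory Fc receptor of B cells and myeloid cells, gave -1.85, -1.64, -2.69, -3.38 and -2.91 in KPT and -5.4, -4.95 and -3.42 in T-LM, with T-LM 1 close to the lowest KPT array. It fell by 2.29 on the log2 scale with an SE of 0.39 (adjusted p = 0.00647), and the call held in 2 of 11 fits that left out 1 array. Without the 3 arrays the change was -2.06 (adjusted p = 1.71e-04). The tyrosine kinase Lck, known from T cells, changed by -0.74 ± 0.13 (adjusted p = 0.00726), while Cd3d was above background on no array. The Lck call held in 1 of 11 fits that left out 1 array and was lost without the 3 arrays. With array position as a term Lck had an adjusted p of 0.413.

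Myeloid markers varied widely within both groups. By limma, 0 of 19 tested members were called with all arrays and 6 had an unadjusted p below 0.05, against 28.4% of all symbols. Of the 19 changes, 18 were negative, and the median was -1.22. The adaptor Tyrobp gave -0.07, 0.53, -4.55, -6.05 and -5.44 in KPT and -7.72, -7.49 and -1.44 in T-LM, a change of -3.23 ± 1.47 (adjusted p = 0.186). Cathepsin S, Ctss, changed by -3.25 ± 1.35 (adjusted p = 0.149) with the same 3 arrays on top. In the other 8 arrays, 4 of 10 (Tyrobp, Fcer1g, Ctss and Fcgr3) were called lower in T-LM, at measured changes of -2.15 to -1.88, and 1, Aif1, was called higher. For all symbols the shares were 5.22% lower and 4.48% higher in T-LM on these 8 arrays. No T-LM array among these passed background for Tyrobp, Fcer1g or Fcgr3, so KPT was at least 1.84-fold, 2.83-fold and 1.47-fold higher. For these 4 genes KPT 3 to 5 lay above T-LM 2 to 6 and below KPT 1 and KPT 2. Tyrobp and Fcer1g are named because of their values.

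Other lists had few or no members called. By limma, 0 members were called among 31 cell cycle, 31 respiratory chain, 15 MHC class I, 25 cholesterol and 24 stress response genes. Of these, 2, 5, 4, 4 and 8 had an unadjusted p below 0.05, against 28.4% of all symbols. The median changes of these lists lay between -0.27 and 0.06. Of 25 interferon-stimulated genes, Trim30a was called lower in T-LM (-0.86 ± 0.14, adjusted p = 0.00614). Its call held in 2 of 11 fits that left out 1 array, and its adjusted p with array position as a term was 0.463. Of 15 keratin and junction genes, Krt19 was called higher (1.64 ± 0.21, adjusted p = 0.00169), with KPT levels between -3.21 and -2.6 and T-LM levels between -1.93 and -0.89. With array position as a term Krt19 had an adjusted p of 0.0894. The drug efflux pump Abcb1b rose by 1.51 ± 0.27 (adjusted p = 0.00726), the growth factor binding protein Igfbp6 by 0.78 ± 0.12 (adjusted p = 0.00381) and the actin sequestering protein Tmsb10 by 1.04 ± 0.16 (adjusted p = 0.00488). The calls of Abcb1b, Igfbp6 and Tmsb10 held in 4, 5 and 5 of 11 fits that left out 1 array. Of 14 IL-6 and STAT3 genes none was called with all arrays and 2 had an unadjusted p below 0.05. Without the 3 arrays Il6, Il11, Socs3 and Bcl3 of 13 were called higher, against 4.48% of all symbols. Bcl3 changed by 1.49 ± 0.35 with an adjusted p of 0.0222.

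The study drew 3 gene signatures from these lines. Human symbols that match no single mouse gene of that symbol were left out, so the lists used here are shorter than the study's. The signatures were chosen on samples that include these, so their counts are not independent evidence. Of the KPT signature, 0 of 13 members were called with all arrays and 6 of 13 were called higher in T-LM without the 3 arrays. Of the T-LM signature, 0 of 17 and then 6 of 12 were called, all higher in T-LM. Of the K-LM signature, 4 of 13 were called higher in T-LM (Saa1, Cfb, Krt19 and Lrg1), and 10 of 13 without the 3 arrays. Among all symbols, 1.02% were called higher in T-LM with all arrays and 4.48% without the 3. In this limma test, 4 members of the KPT signature and 2 of the T-LM signature had an unadjusted p below 0.05 with all arrays. The share of all symbols was 28.4%. Wt1, a kidney development factor of the K-LM signature, gave -1.88, -2.83, -6.16, -5.58 and -6.77 in KPT and -3.69, -3.41 and -3.2 in T-LM (1.19 ± 0.77, adjusted p = 0.364).

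**Figure D4:**
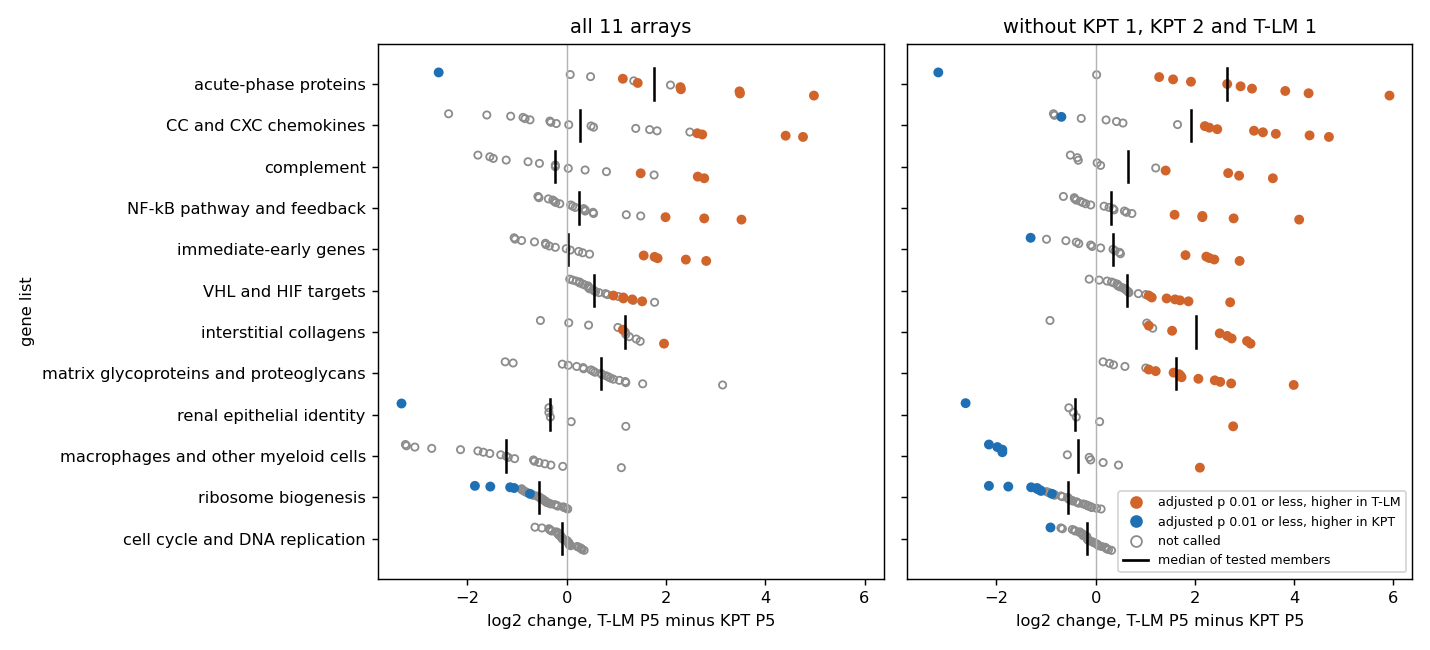
Log2 change (T-LM minus KPT at P5) of each tested member of 12 gene lists, with all 11 arrays (left) and without KPT 1, KPT 2 and T-LM 1 (right); filled points passed an adjusted p of 0.01 or less and bars mark list medians. Collagens and matrix glycoproteins have 2 and 0 called members on the left and 7 and 11 on the right.

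The spread within each group was of similar size, and in KPT it was smaller among KPT 3 to 5. The median SD per probe was 0.309 in KPT and 0.354 in T-LM, and KPT had the larger SD for 8418 probes (43.8%). Among KPT 3 to 5 the median SD was 0.209 and among T-LM 2 to 6 it was 0.308. An SD over 1 was found for 1175 probes in KPT and 1098 in T-LM, but for 111 and 417 after the 3 arrays were left out. The median absolute change between the groups was 0.276, smaller than both median SDs.

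Among the 5 symbols with the largest SD in KPT were Pf4, Wfdc17, Arg1 and Il6, and these 4 separated KPT 1 and KPT 2 from KPT 3 to 5. Pf4, a chemokine of platelets and macrophages, gave 1.07 and 0.59 and then -6.82, -8.12 and -8.2. Arg1, an arginase of macrophages, gave -0.84 and -2.65 and then -8.96, -8.94 and -7.22. Il6, the inflammatory cytokine, gave -1 and -1.89 and then -8.17, -8.64 and -7.47, and in T-LM -3.94, -2.4 and 0.39, so that KPT 1 and KPT 2 were within the T-LM range and KPT 3 to 5 were not above background. Without the 3 arrays Il6 was at least 13.7-fold higher in T-LM (log2 5.16, adjusted p = 7.88e-05), whereas with them the change was 3.05 ± 1.44 (adjusted p = 0.203).

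The 5 symbols with the largest SD in T-LM, Foxc2, Sf3a3, Knl1, Tox4 and Atp1a4, had 1 or 2 arrays far from the rest. Foxc2, Knl1 and Atp1a4 were high on T-LM 1 only (2.05, 1.04 and 0.74), and their probes lie in rows 197 to 205 and columns 7 to 8 of the array. In that box, 16 of 18 probes exceeded all other arrays by over 1 on T-LM 1, against 690 of 55681 probes on the whole array. Sf3a3 was at -8.44 on T-LM 4 and from -0.05 to 0.22 on the other T-LM arrays. Tox4 was at -4.21 and -4.71 on T-LM 4 and T-LM 6 and at 0.59 to 1.35 on the others.

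The same routes were compared at P4 (3 KPT and 4 T-LM arrays) and P6 (5 KPT and 4 T-LM arrays) in 1 fit with P5, over 22011 probes. Of the 301 symbols called at P5, 218 (72.4%) had the same direction at P4 and 231 (76.7%) at P6, against 57.3% and 57.4% of symbols not called at P5. In either direction, 31 were called at P4 and 52 at P6, where 1.37% and 3.02% of all symbols were called. Of those higher in T-LM at P5, 11 were called in the same direction at P4 and 31 at P6. Of those higher in KPT, 18 and 20 were. The route difference itself changed between P5 and P6 for 403 probes (1.83%) and 274 symbols (2.23%), and between P4 and P5 for 216 probes (0.981%) and 133 symbols (1.08%). The P5 arrays enter both of these contrasts.

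Saa3, Saa1, Lrg1 and Mmp3 were called higher in T-LM at all 3 passages. Saa3 was 3.2 higher in T-LM at P4 (adjusted p = 0.00603) and 3.97 ± 0.58 at P6 (adjusted p = 5.93e-05), and Saa1 2.61 (adjusted p = 8.70e-04) and 2.89 ± 0.37 (adjusted p = 1.32e-05). Mmp3 was at least 18.8-fold higher at P4 (log2 4.53, adjusted p = 0.00164) and higher by 6.22 ± 0.69 at P6 (adjusted p = 1.55e-06). Lrg1 was called at P4 (2.82, adjusted p = 3.46e-06) and P6 (1.42, adjusted p = 7.80e-04). Of genes higher in KPT, Bmp7 was called at P4 (-1.42, adjusted p = 0.00721) and P6 (-1.6, adjusted p = 2.58e-04).

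Other leading genes differed less between the routes at P4 or P6. Nos2 was -0.45 at P4 (adjusted p = 0.708) and 0.46 at P6 (adjusted p = 0.731), and the route difference changed by 5.04 from P4 to P5 and by -4.12 from P5 to P6, both called. Cxcl1 was 0.21 at P4 and 0.94 at P6, with called changes of 4.2 and -3.47. Lcn2 was 0.01 at P4, 3.49 at P5 and 2.35 at P6 (adjusted p = 1.28e-04), with a called change from P4 to P5 of 3.48. Fos was 2.83 at P4 (adjusted p = 7.64e-08) and 0.14 at P6 (adjusted p = 0.84). Elovl7 was -0.1 at P6, and its difference changed by 2.38 from P5, while Tspan32 was -2.8 at P6 (adjusted p = 3.11e-06).

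**Figure D5:**
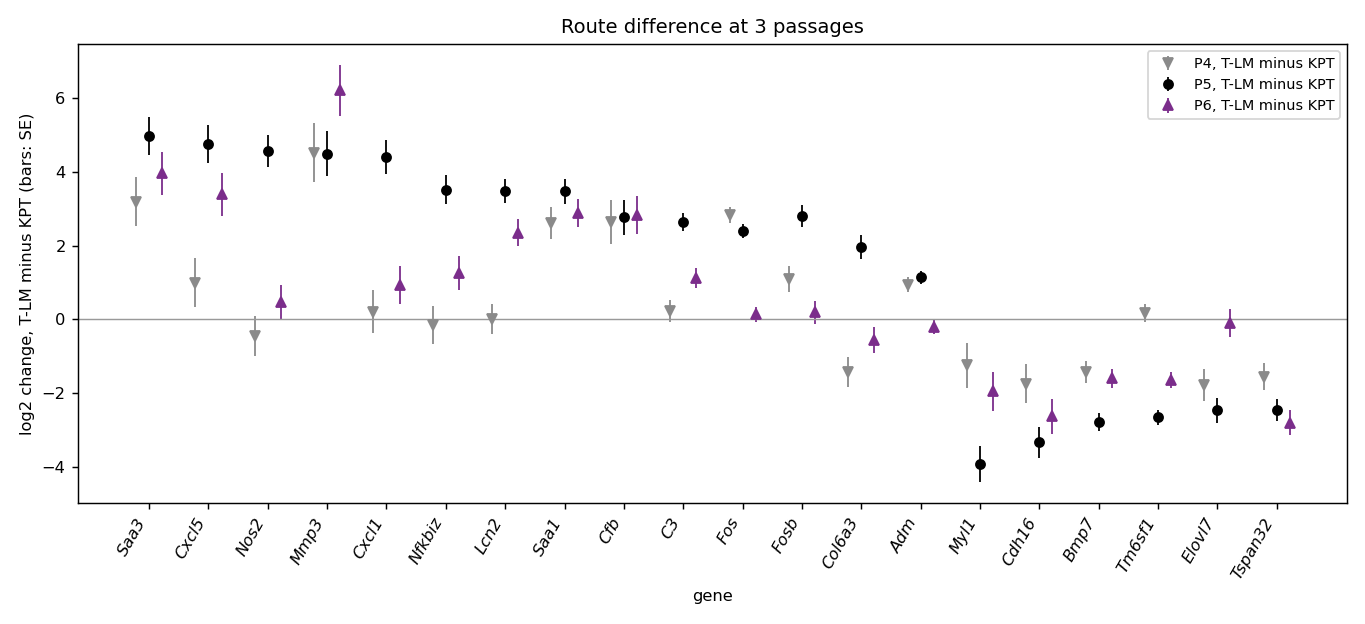
Log2 change, T-LM minus KPT, with its SE at P4, P5 and P6 for 20 genes called at P5, from 1 fit over the 3 passages. Saa3, Mmp3, Saa1 and Cfb are above 2 at all 3 passages, whereas Nos2, Cxcl1 and Nfkbiz are above 3 at P5 only.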

How the data were processed

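Total RNA was labelled with Cy5 and hybridised to single-colour Agilent mouse arrays of 62976 spots. The deposited scanner files hold each spot's signal intensity (raw median, local background, and a processed signal after background subtraction and detrending by the scanner program). The authors' deposited series values are log2 raw median signals after quantile normalization, with a largest difference of 0.1055 from that recomputation, and were used as an alternative.

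Control spots (3671) were left out and 59305 spots were averaged into 55681 probes, of which 28026 matched 21154 symbols in a RefSeq table of GRCm38.p6. Levels are log2 processed signal minus the array's 75th percentile over the 12219 probes well above background on all 70 arrays. A probe was tested if it passed background on 2 or more of the arrays fitted. Genes above background on no array of 1 group were thus tested only through the group in which they are higher. Tests were 2-sided, from limma 3.58.1 under R 4.3.3 (lmFit, then eBayes) without covariates, with calls at 0.01 or less after Benjamini-Hochberg adjustment. The steps were tested on simulated data. A gene on no array of 1 group above background has only a bound: the bright group's mean against the higher, on each dim array, of its own value and the lowest passing signal. Quality measures were compared by exact 2-sided permutation over 462 assignments (smallest p 0.00216). The number of arrays limits the precision.

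Named were the 10 largest changes in each direction with groups that do not overlap, up to 4 members with the smallest p per list, Saa2, Cfb, Vhl, Hif1a and Epas1, and the 5 largest SDs per group. Some of these genes are not reported here. The members and lists were chosen with earlier results of these data known. Alternatives covered background correction, scaling, filters, slide, position, array weights and left-out arrays. Normexp used the median signal, as the files hold no mean. The NF-kB and ribosome biogenesis lists were drawn up after the leading genes were seen.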

Additional observations from a re-analysis of the deposited data

Results flagged for a closer look

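In 17 of 132 groups of 5 or 6 values examined, 1 array lay farther from the rest than Dixon's 95% limit allows, where chance flags about 1 in 20 groups of unselected values. Most of these genes were picked for a large change or SD, so that rate does not apply to them. T-LM 1 was the array in 14 of them. It was the highest T-LM array for Foxc2 (2.05), Saa3 (1.65), Wfdc17 (1.29), Knl1 (1.04), Atp1a4 (0.74), Mmp3 (-0.02), Cxcl5 (-0.17), Pf4 (-0.53), Fcgr2b (-3.42), Arg1 (-4.14) and Boc (-5.9), and the lowest for Lcn2 (2.11), Orm2 (-1.5) and Lamb3 (-5.44). T-LM 4 was lowest for Sf3a3 (-8.44), KPT 5 was highest for Adm (0.99) and KPT 1 was lowest for Tm6sf1 (-5.34).

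The route difference (T-LM minus KPT) at P5 differed from that of a neighbouring passage for 19 named values, tested as an interaction in limma at an adjusted p of 0.01 or less. From P4 to P5 it changed by 5.04 for Nos2, 4.2 for Cxcl1, 3.67 for Nfkbiz, 3.48 for Lcn2, 3.39 for Col6a3, 2.79 for Zc3h12a, 2.62 for Ctag2l1, 2.4 for C3 and 1.73 for Nfkbia, and by -2.83 for Tm6sf1 and -2.32 for C130050O18Rik. From P5 to P6 it changed by -4.12 for Nos2, -3.47 for Cxcl1, -2.62 for Fosb, -2.53 for Col6a3, -2.27 for Fos and -1.36 for Adm, and by 2.38 for Elovl7 and 1.08 for Lck. Nos2, Cxcl1 and Col6a3 passed in both steps, and the P5 arrays enter both.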

How the results depend on the processing

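The count of 479 probes moved with nearly every choice. It was 288 (161 higher in T-LM) with normexp and quantile normalization, 263 with the deposited values, 108 without the filter on dim probes, 313 with a common floor, 1041 with all 15 P5 arrays in the fit, 1840 with KPT and T-LM arrays of P2 to P6, 794 with slide as a random block, 265 with the long mRNA index, 2386 with array weights, 1943 at an adjusted p of 0.05, 87 with array position as a term and 1622 without KPT 1, KPT 2 and T-LM 1. Over the 3 shared slides limma called 0 probes, with 4135 at an unadjusted p below 0.05. With the replicate block it was 32. Same-numbered samples deviated together at r of 0.77, 0.03, 0, 0.27 and 0.11, so the numbers were not taken as pairs, and 1 of 5 KPT arrays correlated best with its own number. Leaving out 1 array gave 92 to 796 calls: 96, 92 and 109 without KPT 3, 4 and 5, 111, 92, 105 and 177 without T-LM 3, 4, 5 and 6, 311 without KPT 2 and 796 without T-LM 1.

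The count between P5 and P6 was 173 without the filter, 777 without the 3 arrays and 245 to 921 with 1 array left out (921 without T-LM 1). Between P4 and P5 it was 91, 636 and 122 to 454 (454 without T-LM 1). The median SD in KPT was 0.342 with the percentile over all probes, 0.385 without the filter, 0.209 without the 3 arrays and 0.279 to 0.319 with 1 left out. In T-LM it was 0.316 with the deposited values, 0.523 without the filter, 0.308 without the 3 arrays and 0.308 to 0.363 with 1 left out. The share above background differed by -3.72 to -2.28 and the 75th percentile by -126 to -70.4 with 1 array left out, and each had an adjusted exact p of 0.0476 without T-LM 6. Of 50 called genes examined, 23 were called in every fit with 1 array left out that tested them. Zc3h12a, 1 of the 23, was tested in 9 of those 11 fits. No change turned direction among 1375 values under alternatives. These genes were picked as called, so a kept direction is a limited check. Of 53 genes examined, the result was weaker for 26 with the common floor, 38 with the replicate block and 20 without the filter. The cause was not tested.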

Other observations

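Ribosome biogenesis genes act in processing ribosomal RNA in the nucleolus, and 5 of them fell in T-LM. The list was drawn up after the leading genes were seen. Of 33 members tested, 5 were called higher in KPT (Nop56, Wdr12, Pes1, Gpatch4 and Ltv1) against 1.65% of all symbols, none was called higher in T-LM, and 32 changes were negative. The median change was -0.55, and -0.41 with the percentile over all probes, where the median of all probes moved by 0.14. Gpatch4 gave -1.24, -0.9, -0.34, -0.43 and -0.91 in KPT and -3.34, -2.58 and -1.93 in T-LM (-1.85 ± 0.27, limma adjusted p = 0.00383), with no overlap. Pes1 changed by -1.54 ± 0.27 (limma adjusted p = 0.00714), Wdr12 by -1.14 ± 0.16 (0.00238), Nop56 by -1.06 ± 0.16 (0.00424) and Ltv1 by -0.74 ± 0.14 (0.00907). Both parental arrays lay within or just beside the KPT range for Gpatch4 (-0.75 and -0.74) and Nop56 (0.91 and 0.93). Without the 3 arrays that stood apart, 8 of 33 were called higher in KPT, against 5.22% of all symbols. At P6 the change of the 5 genes was between -0.13 and 0.19, none of them called.

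The cell cycle list had 0 of 31 members called with all arrays in limma, and its median change was -0.09. An unadjusted p below 0.05 was found for 2 members, against 28.4% of all symbols. A second, dimmer probe of Cdc6 was called (-1.39 ± 0.25, limma adjusted p = 0.00706), while the probe used for Cdc6 changed by -0.64 (0.0574).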
